A study of Mus musculus with 2 samples.

Results

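Glyoxylate is the direct precursor of oxalate. The 10 enzymes described here lie on or near the routes that make glyoxylate, turn it into oxalate or divert it to harmless products. They were chosen by name (Hao1, Hao2, Agxt, Agxt2, Grhpr, Hoga1, Prodh2, Hyi, Ldha and Ldhb) by a rule that uses no measured value, though with earlier results of these data known, and all 10 were found among the 21911 genes of the expression table. The RNA came from 4T1, a line of mouse mammary carcinoma cells. Cells were kept for 48 h with PBS or for 48 h with potassium oxalate, with 1 library per condition. The sample label gives the oxalate dose as 20 µM, as does the paper, whereas the treatment text of the same samples gives 20 mM. Both groups were the same cell line with no genetic change named in the labels, and the oxalate library differed by the added salt. The authors deposited FPKM values, that is, fragment counts scaled to transcript length and library size, so that levels of different genes can be set side by side per length.

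Since each condition was sequenced once, no test between conditions was possible and no difference given here has a replicate check. Low FPKM values fell on whole multiples of a step, and this step gave a depth of about 56800000 reads for the PBS library and 36500000 reads for the oxalate library. Intervals and detection limits rest on reads estimated in this way and cover counting error only. The epithelial markers Epcam, Cdh1, Krt7, Krt8, Krt14 and Krt18 were all at a mean of 72.8 to 701 FPKM over the 2 libraries. Of 10 hepatocyte markers, 8 were listed at 0 in both libraries and their summed FPKM was 0.1 with PBS and 0.18 with oxalate. The summed FPKM of 6 proximal tubule markers was 0.67 and 0.68, nearly all of it Cubn. Of 4 alveolar markers 3 were at 0 in both libraries, and of 5 leukocyte markers 4. Among all 21911 listed genes, 7979 were at 0 in both libraries. The 2 endothelial markers summed to 0.08 FPKM (PBS) and 0.09 FPKM (oxalate). Of 4 fibroblast markers 2 had a mean FPKM of at least 1. These were Col1a1 at 143.48 FPKM (PBS) and 144.61 FPKM (oxalate), and Pdgfra at only 1.88 and 1.93 FPKM. Col1a2, the partner chain of Col1a1, was at 0.88 and 0.33 FPKM and Dcn at 0.31 and 0.33 FPKM. In RNA of a whole culture, fewer cells of a type and less RNA per cell cannot be told apart.

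In the liver, glycolate is oxidized to glyoxylate in peroxisomes, and aminotransferases turn glyoxylate into glycine before it can be oxidized further. A second source is the breakdown of hydroxyproline, an amino acid of collagen, which ends in mitochondria with the release of glyoxylate. Glyoxylate that reaches the cytosol is either reduced to glycolate or oxidized to oxalate by lactate dehydrogenase, and mammals do not break oxalate down. Inherited loss of the aminotransferase, the reductase or the hydroxyproline aldolase causes the primary hyperoxalurias, in which oxalate builds up in the kidney.

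The 4T1 cells expressed 3 of the 4 general enzymes and hardly any of the liver and kidney enzymes. Taking a mean of at least 1 FPKM over the 2 libraries as expressed, 3 of the 10 enzymes were expressed, namely Ldha, Grhpr and Hyi. All of these belong to the 4 enzymes known from many tissues (Grhpr, Hyi, Ldha and Ldhb), whose median level was 7.38 FPKM (PBS) and 6.98 FPKM (oxalate). Of the 6 enzymes known mainly from liver or kidney (Hao1, Hao2, Agxt, Agxt2, Prodh2 and Hoga1) none reached this level, 4 were listed at 0 in both libraries, and their median level was 0 FPKM in both. Among all 21911 listed genes, 10267 had a mean of at least 1 FPKM and 7979 were listed at 0 in both libraries. A count of 4 of 10 enzymes at 0 therefore does not set the enzymes apart from other genes. Ldha alone made up 98.0% of the summed FPKM of the 10 enzymes with PBS and 98.3% with oxalate. The other 9 enzymes together came to 16.3 FPKM (PBS) and 15.2 FPKM (oxalate).

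**Figure D1:**
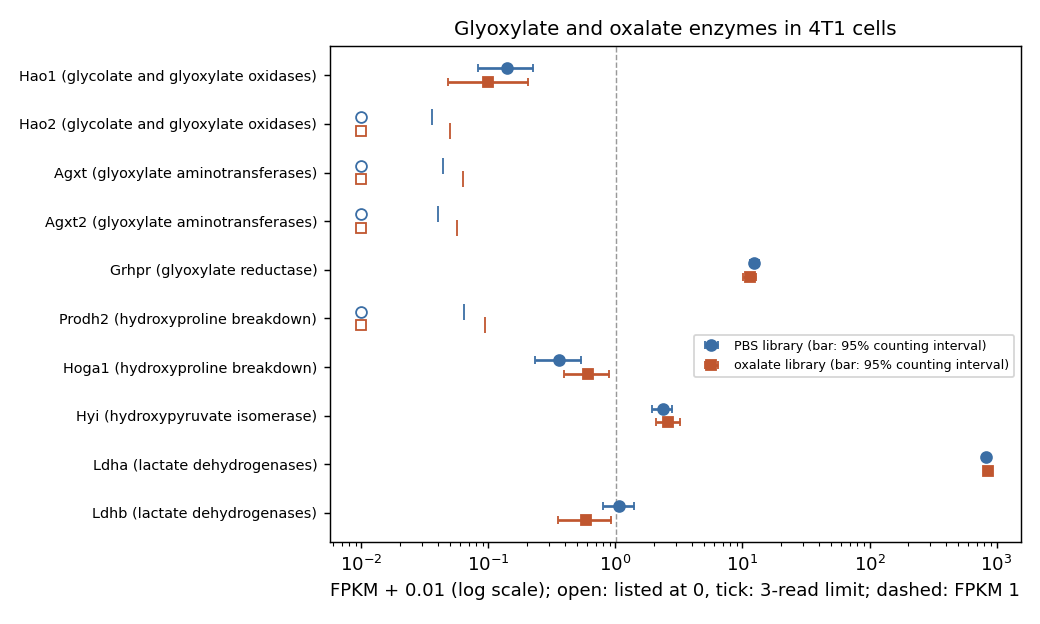
FPKM of each of the 10 enzymes (log scale, 0.01 added) in the PBS library (blue circles) and the oxalate library (orange squares), with 95% counting intervals from estimated reads; open symbols are enzymes listed at 0, and the tick beside them marks the level that 3 reads would give. Ldha lies at 819 and 864 FPKM, Grhpr and Hyi above the dashed line at 1 FPKM, and Hao2, Agxt, Agxt2 and Prodh2 at 0 in both libraries.

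Among the glycolate and glyoxylate oxidases, Hao1 (ENSMUSG00000027261, chr2:134497361-134554368 on the minus strand of GRCm38, the build of all coordinates here, 8 exons) encodes the peroxisomal glycolate oxidase of the liver. Hao1 was at 0.13 FPKM (PBS) and 0.09 FPKM (oxalate). An estimated 15 and 7 reads lay behind these values. The exact Poisson 95% interval of the level ran from 0.072 to 0.21 FPKM with PBS and from 0.038 to 0.19 FPKM with oxalate, so that the intervals overlapped. Hao1 was thus detected in both libraries, below the median of all listed genes, which was 0.39 FPKM as a mean of both libraries. Hao2 (ENSMUSG00000027870, chr3:98874521-98893239, minus strand), whose product oxidizes longer hydroxy acids in kidney and liver, was listed at 0 in both libraries. A count of 0 allows Hao2 up to 0.026 FPKM (PBS) and 0.040 FPKM (oxalate), the levels that 3 reads would give.

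The study measured Hao1 mRNA by quantitative PCR in lung tissue and lung cells, which are not the samples described here, and its primer pair shows which part of the transcript that assay read. Both primers, printed 5′ to 3′, matched the 2045-base Hao1 transcript of GENCODE M21 without a mismatch, and the product of 114 bases runs from transcript position 442 to 555.
Hao1 forward primer: gaccgtgagatcagcagaca
Hao1 reverse primer: gttccgcacgtcatcaatgc
Both sites lie in exon 3 of 8, at chr2:134530662-134530681 for the forward and chr2:134530568-134530587 for the reverse primer (GRCm38). The FPKM value of Hao1 covers the whole transcript and not this exon alone.

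Neither aminotransferase was detected. Agxt (ENSMUSG00000026272, chr1:93135240-93145421, plus strand, 11 exons) encodes the liver enzyme that turns glyoxylate and alanine into glycine and pyruvate. Agxt was listed at 0 in both libraries, which allows up to 0.034 FPKM (PBS) and 0.053 FPKM (oxalate). Agxt2 (ENSMUSG00000089678, chr15:10358532-10410153, plus strand), its mitochondrial counterpart of kidney and liver, was also at 0 in both, which allows up to 0.030 and 0.047 FPKM. A single read would have given 0.011 FPKM for Agxt in the PBS library and 0.010 FPKM for Agxt2, which the 2 decimals of the table would have shown as 0.01.

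The reductase was expressed. Grhpr (ENSMUSG00000035637, chr4:44981395-44990734, plus strand, 9 exons) encodes glyoxylate and hydroxypyruvate reductase, which turns glyoxylate back into glycolate. Grhpr was at 12.42 FPKM (PBS) and 11.37 FPKM (oxalate), rank 5980 and 6264 among all listed genes. Its level was 95.5 times that of Hao1 in the PBS library and 126 times in the oxalate library, the latter set against an estimated 7 Hao1 reads. Against the limit of 3 reads, Grhpr was at least 365-fold higher than Agxt with PBS and at least 215-fold higher with oxalate. The log2 fold change of Grhpr, log2((oxalate + 1)/(PBS + 1)), was -0.12, and the counting interval of the log2 ratio of reads, from -0.33 to 0.072, included 0.

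Of the hydroxyproline route, the first step was not detected and the last was found at a low level. Prodh2 (ENSMUSG00000036892, chr7:30493622-30513402, plus strand) encodes hydroxyproline dehydrogenase and was listed at 0 in both libraries, which allows up to 0.054 FPKM (PBS) and 0.084 FPKM (oxalate). Hoga1 (ENSMUSG00000025176, chr19:42045610-42070953, plus strand, 7 exons) encodes the mitochondrial aldolase that releases glyoxylate. Hoga1 was at 0.35 FPKM (PBS) and 0.60 FPKM (oxalate), an estimated 23 and 25 reads. Of the 6 liver and kidney enzymes, Hoga1 had the highest level in both libraries. Its log2 fold change was 0.25 with a pseudocount of 1, and the log2 ratio of reads was 0.76 with a counting interval from -0.12 to 1.64, which included 0. With the longer exon-union length of Hoga1, which gives an estimated 45 and 49 reads, the interval ran from 0.15 to 1.38, and the way reads are counted therefore decides whether it includes 0. Another listed gene on the same strand, 4933411K16Rik (0.19 FPKM (PBS) and 0.14 FPKM (oxalate)), overlaps Hoga1, so that the Hoga1 values are uncertain. Overlaps of the other enzymes with listed genes are not reported here.

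Hyi (ENSMUSG00000006395, chr4:118359990-118362744, plus strand) encodes a hydroxypyruvate isomerase, known chiefly from its bacterial relatives. Hyi was at 2.34 FPKM (PBS) and 2.59 FPKM (oxalate), an estimated 121 and 86 reads. The log2 ratio of reads was 0.15 with a counting interval from -0.27 to 0.56, which is too wide at this depth to show a difference. GENCODE M21 lists Hyi as a polymorphic pseudogene in the reference strain.

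The lactate dehydrogenases were represented almost wholly by Ldha. Ldha (ENSMUSG00000063229, chr7:46841475-46855627, plus strand) encodes the subunit that favours the reduction of pyruvate to lactate, and the enzyme can oxidize glyoxylate to oxalate. Ldha was at 818.89 FPKM (PBS) and 864.44 FPKM (oxalate), which placed it at rank 72 and rank 63 of all listed genes. Ldhb (ENSMUSG00000030246, chr6:142490249-142507957, minus strand), the subunit known from heart, was at 1.06 FPKM (PBS) and 0.58 FPKM (oxalate), an estimated 51 and 18 reads. Ldha therefore stood at 773 times the level of Ldhb in the PBS library and at 1490 times in the oxalate library. Its share of the summed FPKM of Ldha and Ldhb was 99.87% with PBS and 99.93% with oxalate. Taken over estimated reads, the share was 99.89% with PBS (exact binomial 95% interval 99.85 to 99.92%) and 99.94% with oxalate (99.91 to 99.97%). Of all other annotated genes, 21 processed pseudogenes matched an Ldha transcript at 90% identity or more over at least 200 bases, and 1 matched Ldhb. None of these pseudogenes is listed in the expression table, and reads of Ldha and Ldhb may have been shared with them, so that both levels are uncertain to that extent. The other 8 enzymes had no such match.

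The order of levels was the same in both libraries for the 3 highest enzymes, Ldha, Grhpr and Hyi, and differed below them. With PBS the next were Ldhb, Hoga1 and Hao1, with counting intervals of 0.79 to 1.39, 0.22 to 0.53 and 0.072 to 0.21 FPKM, which did not overlap. With oxalate, Hoga1 at 0.60 FPKM (0.39 to 0.88) and Ldhb at 0.58 FPKM (0.34 to 0.92) were next to each other with overlapping intervals, and Hao1 followed at 0.09 FPKM (0.038 to 0.19).

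Promoters of the detected and undetected enzymes also differed in their letters, which the choice of the 10 enzymes did not use. RefSeq promoter sequences (GRCm38.p6) were matched for 9 of the 10 enzymes, with 11 start sites in all, and Hyi had none. CG dinucleotides, the sites of DNA methylation in mammals, were counted in the 250 bases before each start site. Of the 5 sequences printed here, Agxt stands for the undetected liver enzymes, Hao1 is the oxidase the study is about, and Grhpr, Ldhb and Ldha are general enzymes; all are 5′ to 3′ on the strand of the gene, with CG in capitals.
Agxt, chr1:93134990-93135239, plus strand: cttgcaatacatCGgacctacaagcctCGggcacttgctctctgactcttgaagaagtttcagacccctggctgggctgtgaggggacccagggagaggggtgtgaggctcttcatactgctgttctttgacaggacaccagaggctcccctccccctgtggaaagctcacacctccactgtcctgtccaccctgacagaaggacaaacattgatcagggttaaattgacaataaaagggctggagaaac
Hao1, chr2:134554353-134554602, minus strand: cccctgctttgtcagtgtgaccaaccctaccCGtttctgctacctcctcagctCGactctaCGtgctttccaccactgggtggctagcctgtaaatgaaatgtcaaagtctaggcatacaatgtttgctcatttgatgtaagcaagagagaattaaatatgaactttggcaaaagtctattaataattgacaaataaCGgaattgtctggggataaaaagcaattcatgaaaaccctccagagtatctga
Grhpr, chr4:44981144-44981393, plus strand: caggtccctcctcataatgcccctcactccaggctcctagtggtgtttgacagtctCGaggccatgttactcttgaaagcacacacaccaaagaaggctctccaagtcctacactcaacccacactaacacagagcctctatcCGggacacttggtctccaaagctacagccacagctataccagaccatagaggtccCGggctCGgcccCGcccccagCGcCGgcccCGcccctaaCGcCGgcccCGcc
Ldhb, chr6:142507958-142508207, minus strand: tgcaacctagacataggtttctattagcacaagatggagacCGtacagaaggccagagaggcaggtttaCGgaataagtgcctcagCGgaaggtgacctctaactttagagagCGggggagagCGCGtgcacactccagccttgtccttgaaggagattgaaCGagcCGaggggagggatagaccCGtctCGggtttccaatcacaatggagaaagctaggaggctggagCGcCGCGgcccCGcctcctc
Ldha, chr7:46845554-46845803, plus strand: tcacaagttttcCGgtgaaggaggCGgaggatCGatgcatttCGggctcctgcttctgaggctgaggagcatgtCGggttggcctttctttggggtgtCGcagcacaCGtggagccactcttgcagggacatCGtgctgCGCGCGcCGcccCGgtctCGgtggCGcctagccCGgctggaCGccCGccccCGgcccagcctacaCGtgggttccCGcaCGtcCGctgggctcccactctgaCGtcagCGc

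The 4 enzymes listed at 0 had the fewest CG sites, namely 1 for Hao2, 2 for Agxt, 2 for Prodh2 and 3 for each of the start sites of Agxt2. Hao1 had 4 and Hoga1 had 8. The general enzymes had 11 (Grhpr), 14 (Ldhb) and, for the start sites of Ldha, 25 and 9. In Grhpr most of the CG sites stood next to the start site, at the end of the printed sequence. By comparison, the median was 6 over all 32851 promoters, 16 over 10472 promoters of genes with a mean of at least 1 FPKM, and 3 over 6519 promoters of genes listed at 0 in both libraries. As among genes in general, the enzymes listed at 0 had fewer CG sites than the expressed ones. Ldhb, with 14 CG sites at a mean of 0.82 FPKM, nevertheless had more CG sites than Grhpr at a mean of 11.9 FPKM. Short motifs were counted in the same windows on both strands. The hypoxia response core ACGTG occurred 5 times before the first start site of Ldha and once in Hao1, and in no other window of the enzymes; 16.6% of all promoters hold it. The E-box CACGTG, which contains the core on both strands, occurred 2 times in that Ldha window, as in 6.02% of all promoters with at least 1. The motif GTTAAT, part of the site bound by the liver factor HNF1, occurred 3 times in Hao2, 2 times in Prodh2 and once in Hoga1, and 6.43% of all promoters hold it. The motif TATAAA was found in Agxt2 only, and there on the strand opposite to the gene. On either strand, 12.4% of all promoters hold it. These matches describe letters and do not show binding.

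**Figure D2:**
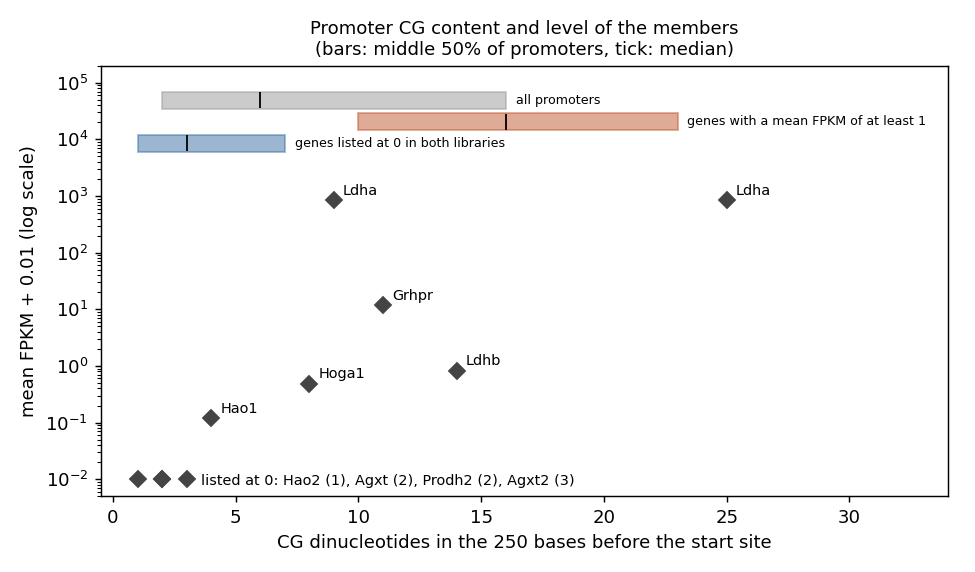
CG dinucleotides in the 250 bases before each start site (horizontal axis) against the mean FPKM of the gene (log scale, 0.01 added). Each start site of 9 enzymes has 1 point, except that both Agxt2 start sites, at 3 CG sites each, share 1 point. The bars at the top show the middle 50% and the median of all promoters, of expressed genes and of genes listed at 0. The undetected enzymes lie at 1 to 3 CG sites and the first start site of Ldha at 25.

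Oxalate is the end product of this pathway, and the comparison of the libraries asks whether the 10 enzymes differed when it was added. None of the 10 enzymes differed 2-fold or more. Of the 10267 genes with a mean of at least 1 FPKM, which include 3 of the enzymes, 0.653% did (0.292% higher and 0.36% lower with oxalate). Over all 21911 listed genes the share was 0.315%, so that a count of 0 among 10 enzymes, 4 of them listed at 0 in both libraries, does not set them apart from other genes. The log2 fold changes of the 6 detected enzymes ran from -0.38 for Ldhb to 0.25 for Hoga1, with -0.12 for Grhpr, -0.052 for Hao1, 0.078 for Ldha and 0.10 for Hyi. The 3 expressed enzymes had a median of 0.078, beside 0.0031 over all genes with a mean of at least 1 FPKM. Only Ldhb differed at least 1.2-fold at this pseudocount, as did 5.85% of all listed genes.

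**Figure D3:**
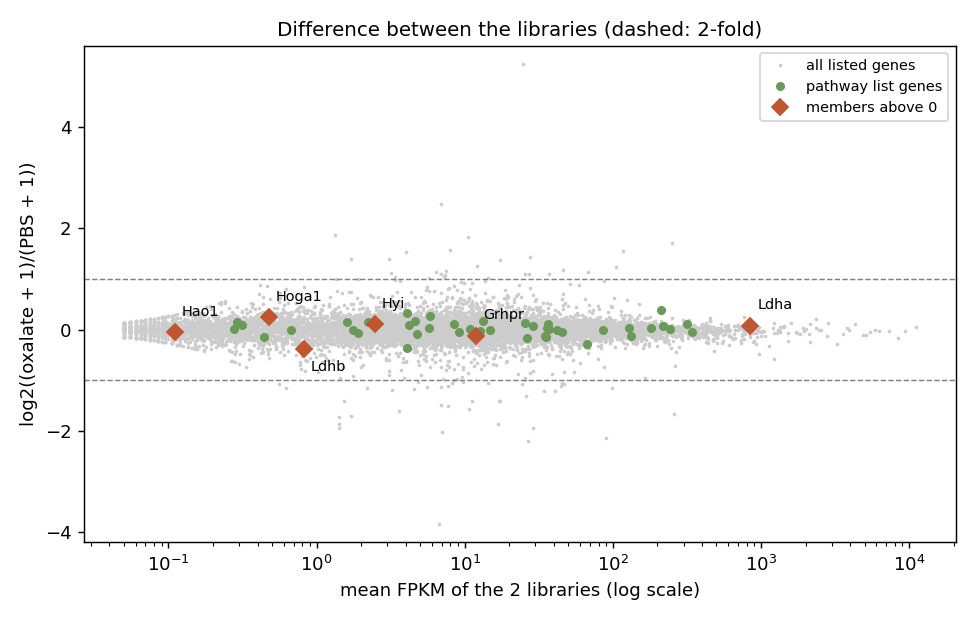
Log2 fold change, log2((oxalate + 1)/(PBS + 1)), against the mean FPKM (log scale) of all listed genes with a mean of at least 0.05 FPKM (grey), genes of the pathway lists (green) and the 6 detected enzymes (orange diamonds); dashed lines mark 2-fold. The enzymes lie between -0.38 and 0.25, inside the dashed lines.

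Counting error was largest for the enzymes with few reads. The 95% counting interval of the log2 ratio of reads, computed exactly after Clopper and Pearson, left out 0 for Ldhb and Ldha and included it for Hao1, Grhpr, Hoga1 and Hyi. For Hao1 it ran from -2.00 to 0.92, that is, from 0.251 to 1.89 times the PBS level. For Ldhb the ratio was -0.86 with an interval from -1.73 to -0.064. For Ldha the ratio was 0.078 with an interval from 0.057 to 0.099, a 1.06-fold difference. Such intervals left out 0 for 48.8% of the genes with a mean of at least 1 FPKM and for 30.1% of those between 0.5 and 2 FPKM, the range that holds Ldhb, so that the Ldhb and Ldha intervals do not set these genes apart from others.

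**Figure D4:**
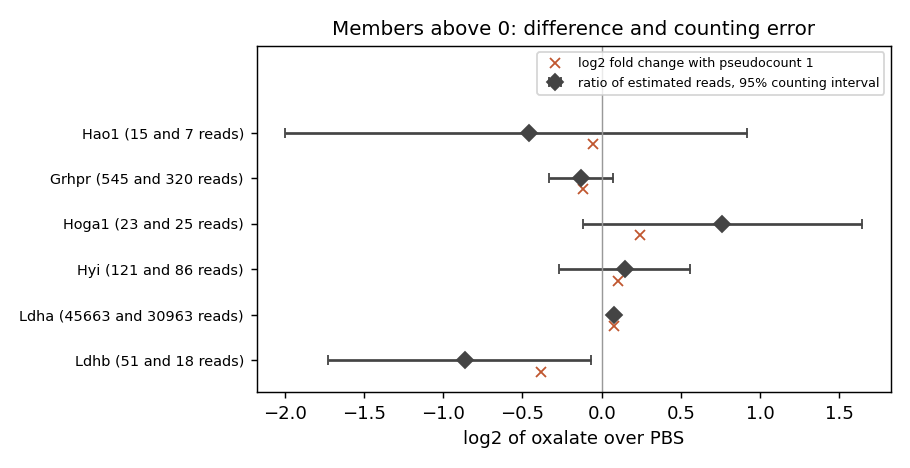
Log2 of oxalate over PBS for the 6 detected enzymes, as the ratio of estimated reads with its 95% counting interval (diamonds) and as the log2 fold change with a pseudocount of 1 (crosses); estimated reads in PBS and oxalate stand beside each name. The intervals of Hao1, Grhpr, Hoga1 and Hyi cross 0, and that of Hao1 is the widest.

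Of the 50 genes listed around these enzymes, 37 had a mean of at least 1 FPKM, 21 of them higher and 16 lower with oxalate, and none differed 2-fold or more. Their median log2 fold change was 0.019. Among all 21911 listed genes, 10267 had a mean of at least 1 FPKM, 5198 of them higher and 5033 lower with oxalate. The counts of higher and lower genes in each list were not tested. All 5 genes listed for the breakdown of proline and hydroxyproline were expressed (4 higher and 1 lower with oxalate, median log2 fold change 0.019), whereas Prodh2 was not detected. Prodh, which encodes proline dehydrogenase, was at 24.23 FPKM (PBS) and 26.42 FPKM (oxalate), at least 447-fold higher than Prodh2 with PBS and at least 313-fold higher with oxalate. Aldh4a1, whose mitochondrial dehydrogenase serves both amino acids, was at 1.96 and 1.82 FPKM. Got2, which encodes the mitochondrial aspartate aminotransferase, was at 243.15 and 246.33 FPKM, and the cytosolic Got1 at 36.91 and 37.27 FPKM.

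Genes that link glyoxylate with glycine and serine were expressed in part: 4 of 9 had a mean of at least 1 FPKM, 2 of them higher and 2 lower with oxalate (median 0.0052). Dao, which encodes D-amino acid oxidase and can form glyoxylate from glycine, and Pipox, a peroxisomal oxidase of sarcosine and pipecolate, were listed at 0 in both libraries. Shmt2, the mitochondrial enzyme that interconverts serine and glycine, was at 184.22 FPKM (PBS) and 240.23 FPKM (oxalate), a log2 fold change of 0.38. This was the largest difference among the 50 genes at this pseudocount. The cytosolic Shmt1 was at 35.82 and 36.53 FPKM. Glyctk, which encodes glycerate kinase, was at 0.68 and 0.66 FPKM. Of the glycine cleavage system, Gcsh (86.67 and 85.63 FPKM) and Dld (46.27 and 44.84 FPKM) were expressed, Amt was at 0.27 and 0.36 FPKM, and Gldc, its decarboxylase, was listed at 0 with PBS and at 0.03 FPKM with oxalate.

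All 8 genes that handle glyoxal, glycolaldehyde and phosphoglycolate had a mean of at least 1 FPKM, 6 of them higher and 2 lower with oxalate (median log2 fold change 0.046). Pgp, whose phosphatase releases glycolate from phosphoglycolate, was at 36.42 FPKM (PBS) and 33.37 FPKM (oxalate). Akr1b3, an aldose reductase, had the highest level of this list at 306.46 and 328.85 FPKM, and Khk, ketohexokinase, the lowest at 1.48 and 1.74 FPKM. Glo1, the glyoxalase that detoxifies methylglyoxal, was at 73.85 and 60.8 FPKM, a log2 fold change of -0.28.

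The peroxisome, in which the oxidases and Agxt act in the liver, was represented by all 16 genes of its list, 8 higher and 8 lower with oxalate and with a median log2 fold change of 0.0058. Cat, the catalase that removes the hydrogen peroxide made by the oxidases, had the highest level at 41.81 FPKM (PBS) and 41.61 FPKM (oxalate). Pex5, the import receptor for most peroxisomal enzymes, was at 10.70 and 10.85 FPKM. The lowest was Pxmp2, a peroxisomal membrane channel, at 1.79 and 1.76 FPKM. Pex16, a peroxisomal membrane protein, was at 3.49 and 4.61 FPKM and is named because of this difference, which was over 1.2-fold.

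Apart from Ldha and Ldhb, the lactate dehydrogenases were at low levels, and 2 of the 7 genes in the list of other lactate dehydrogenases and lactate transporters reached a mean of 1 FPKM, both lower with oxalate (median log2 fold change -0.092). Ldhc, the form of the testis, was listed at 0 in both libraries, and Ldha was at least 15227-fold higher with PBS and at least 10325-fold higher with oxalate. Ldhd, which acts on D-lactate in mitochondria, was at 0.52 FPKM (PBS) and 0.37 FPKM (oxalate), and its counting interval, from -1.14 to 0.16 on the log2 scale, included 0. Slc16a1, a lactate transporter of the monocarboxylate family, was at 37.18 and 33.54 FPKM, and Slc16a7 was listed at 0. Bsg, the partner protein of the lactate transporters, had the highest level of this list at 348.16 and 338.63 FPKM.

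**Figure D5:**
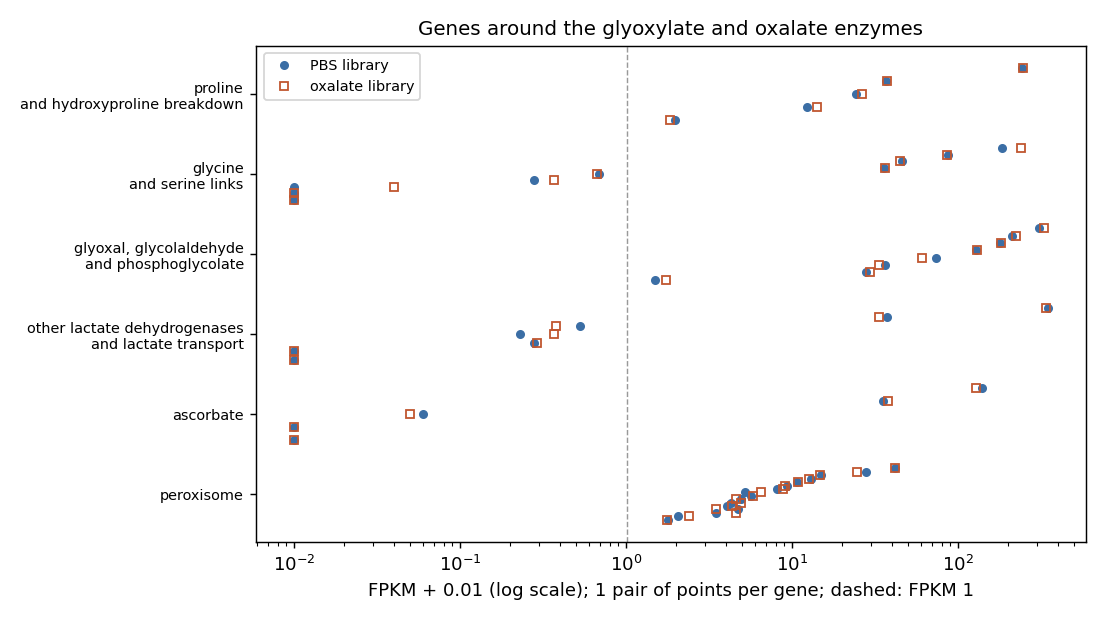
FPKM (log scale, 0.01 added) of the 50 genes around the enzymes, by list, with 1 pair of points per gene, filled blue for the PBS library and open orange for the oxalate library. The points of most pairs lie close together, Gldc (0 and 0.03 FPKM) being an exception, and 37 genes stand to the right of the dashed line at 1 FPKM as a mean of the libraries.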

How the data were processed

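Polyadenylated RNA of 4T1 cells was fragmented, reverse transcribed and sequenced by Illumina chemistry, with 1 library for each condition. Bowtie2 2.2.8 and TopHat2 2.1.1 are named in the submitters' processing notes; the quantification tool, genome build, annotation, filters and use of strand in counting are not given in the sources used here. The authors deposited FPKM values with 2 decimals for 21911 genes. Samples were grouped by their treatment label.

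Identifiers were matched to GENCODE M21 (GRCm38), which gave symbols, coordinates and lengths for 21848 genes and none for 63. The authors may have used another annotation. The enzymes, the gene lists and the rule for named genes (all 10 enzymes, genes of the lists past 2-fold, the highest and lowest of each list and the nearest steps) were chosen with earlier results of these data known. Other named genes of the lists (among them Glo1, Gldc, Gcsh, Dld, Amt, Pex5, the lactate transporters and the ascorbate genes) were added after their values were seen. A gene counted as expressed at a mean of at least 1 FPKM and as changed at 2-fold or more in log2((oxalate + 1)/(PBS + 1)), a scale on which differences of low genes come out smaller. No test between conditions was possible.

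Depth was estimated from low values of genes with 1 annotated transcript under 900 bases. The product of FPKM and length in kb took multiples of 0.0176 (PBS, 122 values) and 0.0274 (oxalate, 107 values), which is what 1 read is worth, and 97.5% and 100% of these values lay within 0.2 of a whole read. Reads of other genes were estimated with the mean length of their coding transcripts and are less certain for genes with several transcripts. Limits for a count of 0 stand for 3 reads. The statistical steps were tested on simulated data with known answers. These simulated reads had counting error only and were recovered with the same lengths that made them. Errors in length and variation between libraries were therefore not tested. Alternatives were other pseudocounts, rescaling, filters, thresholds and lengths. Near-identical copies were searched with BLAST. Protein sequences were not analysed here, and some values of single genes are not reported here. The work was done in Python 3.11.15 with scipy 1.17.1 for intervals, pandas 2.3.3 and numpy 2.4.6 for tables, and matplotlib 3.10.9 for plots.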

Additional observations from a re-analysis of the deposited data

How the results depend on the processing

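No paired analysis was possible because there was 1 library for each condition, and likewise no replicate could be left out. None of the enzymes differed 2-fold with a pseudocount of 0.1 or 0.01, after rescaling to equal median ratio or to TPM, or among those with a mean of at least 1 FPKM. At 1.2-fold 1 enzyme differed. With thresholds and pseudocount changed together, chosen after the values were seen, 2 differed at 1.5-fold and 3 at 1.2-fold with a pseudocount of 0.01. The 3 expressed enzymes became 6 at a mean of at least 0.1 FPKM and 6 above 0, because lower levels were then counted. The same filters, added for the 6 liver and kidney enzymes after the values were seen, gave 2 and 2 in place of 0. Of the genes around the enzymes, 1 differed 2-fold with a pseudocount of 0.01 (Gldc), a setting also added later. The log2 fold changes of the 6 detected enzymes kept their sign under all 4 alternatives (24 values), and ran from -0.86 to -0.38 for Ldhb and from 0.24 to 0.76 for Hoga1. The kept signs are no check of direction, since a pseudocount cannot change a sign. The rescaling factors, a median ratio of 1.0005 and a TPM factor of 1.015, were too small to change one here. Estimated reads came out over 1.5 times higher in 16 of 24 cases with longer lengths, which narrows the counting intervals. The planned addition of Ldha pseudogenes was not run, since none is listed. Depth limits the low enzymes: 1 read of Hao1 is worth 0.0086 FPKM (PBS) and 0.013 FPKM (oxalate).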

Other observations

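Ascorbate is a further source of oxalate in mammals, since its breakdown releases oxalate without an enzyme. Of 5 genes listed for its handling, 2 had a mean of at least 1 FPKM. Gulo, which encodes the last enzyme of ascorbate synthesis and is known from mouse liver, was listed at 0 in both libraries, as was Rgn, an earlier enzyme of that route. Slc23a2, an ascorbate transporter of many cell types, was at 35.21 FPKM (PBS) and 37.93 FPKM (oxalate), and Slc23a1, the transporter of kidney and intestine, at 0.05 and 0.04 FPKM. Gsto1, which encodes a transferase that can recycle dehydroascorbate, was at 138.91 and 127.89 FPKM. None of the 5 differed 2-fold, and their log2 fold changes lay between -0.12 and 0.10.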
